A study of Mus musculus with 2 samples.

Results

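Expression of 9 genes of the type 17 immune axis was followed in single cells from tongue tumours: the cytokines Il17a, Il17f and Il22, the lymphocyte receptors Il23r and Ccr6, the tissue receptor chains Il17ra, Il17rc and Il22ra1, and Il23a, which codes for the p19 subunit of interleukin 23. They were picked by symbol from the 31053 genes that both libraries list, and all 9 were found. The JQ1 library came from HNSCC (head and neck squamous cell carcinoma) of the tongue in wild type C57BL/6 mice that had been given the carcinogen 4NQO and then JQ1, a BET bromodomain inhibitor, for 10 days. The control library came from wild type C57BL/6 mice with the same 4NQO tumours that received control for the same time. There was 1 library per treatment, how many mice each pools is not stated in the labels, and no value below has a replicate or a test. Ratios are JQ1 over control. Values and ratios are followed by their 95% interval, which covers counting error only.

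Type 17 immunity defends skin and mucosa. Type 17 lymphocytes, among them many gamma-delta T cells of the oral mucosa, respond to interleukin 23 from myeloid and epithelial cells by releasing IL-17A, IL-17F and IL-22. IL-17A and IL-17F act through a receptor of IL-17RA and IL-17RC on epithelium and stroma, IL-22 acts through IL-22RA1 on epithelium, and the responding cells make neutrophil chemokines, antimicrobial peptides and inflammatory mediators. CCR6 guides type 17 cells toward tissue that makes its ligand CCL20.

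Il17a (mm10 chr1:20730905-20734496, plus strand) and Il17f (chr1:20777146-20790617, minus strand) are neighbours on mouse chromosome 1, with 42650 bp between the genes. Il22 (chr10:118204942-118210047, plus strand) and Il23a (chr10:128296139-128298752, minus strand) lie on chromosome 10. Il23r (chr6:67422932-67491855, minus strand), Il17rc (chr6:113471427-113483140, plus strand) and Il17ra (chr6:120463247-120487559, plus strand) lie on chromosome 6. Ccr6 (chr17:8236043-8257141, plus strand) and Il22ra1 (chr4:135728172-135752140, plus strand) complete the group. The RefSeq start of Il17f used for its promoter lies inside the span annotated for the gene.

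RefSeq promoter windows (GRCm38.p6, 250 bases before to 50 after the start site) were at hand for 7 of the 9 genes, 8 windows in all since Ccr6 has 2 start sites. The nuclear receptor half-site AGGTCA, on either strand (TGACCT when read on the other), occurred in 4 of the 8, namely those of Il17a, Il17f and Il23r and the first of Ccr6, against 16.3% of 32851 windows of the same length. The STAT element TTCNNNGAA was present in the first Ccr6 window alone (8.30% of all windows), and neither the canonical NF-kB site (0.155%) nor the AP-1 site TGACTCA (5.20%) was present in any of the 8. Both strands were searched for each motif, and a match is a run of letters, not a measured site. The windows of the 3 cytokines and of Il23r are shown, since these are the genes whose RNA the T cell comparison turns on; capitals mark the AGGTCA or TGACCT half-site. The half-site lay at -120 in Il17a, -58 in Il17f, -66 and -229 in Il23r and -44 in the first Ccr6 window, counted from the start site to the first base of the match, and the Il22 window held none.
Il17a chr1:20730655-20730954, plus strand: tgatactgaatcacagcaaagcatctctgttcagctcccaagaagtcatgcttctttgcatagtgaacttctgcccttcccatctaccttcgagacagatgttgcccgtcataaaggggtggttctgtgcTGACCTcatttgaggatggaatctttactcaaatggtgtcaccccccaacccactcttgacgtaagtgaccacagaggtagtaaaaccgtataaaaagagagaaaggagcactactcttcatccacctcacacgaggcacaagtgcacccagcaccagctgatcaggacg
Il17f chr1:20784221-20784520, minus strand: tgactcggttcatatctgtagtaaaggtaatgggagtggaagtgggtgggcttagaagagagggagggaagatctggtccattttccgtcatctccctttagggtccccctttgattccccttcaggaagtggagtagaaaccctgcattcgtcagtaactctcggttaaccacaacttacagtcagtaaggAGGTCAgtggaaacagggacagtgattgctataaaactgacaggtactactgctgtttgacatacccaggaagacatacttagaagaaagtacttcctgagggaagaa
Il22 chr10:118204714-118205013, plus strand: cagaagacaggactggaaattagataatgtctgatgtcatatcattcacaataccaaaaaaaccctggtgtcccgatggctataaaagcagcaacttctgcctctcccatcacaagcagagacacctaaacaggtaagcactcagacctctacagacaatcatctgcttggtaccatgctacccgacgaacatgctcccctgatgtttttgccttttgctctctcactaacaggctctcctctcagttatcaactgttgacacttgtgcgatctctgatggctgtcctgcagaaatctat
Il23r chr6:67491806-67492105, minus strand: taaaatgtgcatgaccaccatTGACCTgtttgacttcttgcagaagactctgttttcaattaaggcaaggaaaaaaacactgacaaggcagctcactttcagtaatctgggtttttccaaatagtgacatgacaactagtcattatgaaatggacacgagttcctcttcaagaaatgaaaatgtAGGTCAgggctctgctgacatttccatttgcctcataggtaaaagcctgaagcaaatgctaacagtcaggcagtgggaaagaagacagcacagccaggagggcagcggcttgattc

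The JQ1 library held 16233 barcodes with 99565417 UMIs (unique molecular identifiers, 1 per captured RNA molecule), and the control library 9754 barcodes with 118382532 UMIs. After filtering, 14044 JQ1 and 8150 control cells were kept, with medians of 3879 and 11302.5 UMIs. The libraries shared 40 barcodes, and without them the log2 ratios in the T class were -0.33 for Il17a, -1.56 for Il17f and -2.27 for Il22, against -0.36, -1.56 and -2.26 with them. Each cell was gated into the class whose marker list it detected most fully, without use of any of the 9 genes. The makeup of the libraries differed: keratinocytes were 10.7% of kept cells in JQ1 and 65.8% in control, while the T class was 2.70% in JQ1 (379 cells, median 2471 UMIs) and 2.86% in control (233 cells, median 2012 UMIs). All 15 T markers were detected in the T class of both libraries. Levels are therefore given within a class, as UMIs of a gene per 1000000 UMIs of all genes in that class (CPM).

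Il17f and Il22 were lower in JQ1 than in control T cells by more than 1.5-fold, and Il17a was lower by less than 1.5-fold. Il23r was within 1.5-fold with wide counting error, Ccr6 was past it with an interval that held 1, and Il17ra was higher in JQ1 T cells. Of the 6 members measured in the T class (20 or more UMIs when both libraries are added, and 10 CPM or more in one of them), 3 were lower by 1.5-fold or more and 1 was higher. Of all 6925 genes measured there, 8.61% were lower and 17.3% higher by that fold.

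Il17a, the founding cytokine of the axis, had 2547 UMIs in 78 of 379 JQ1 T cells and 1648 UMIs in 56 of 233 control T cells. That is 2274 CPM (2186 to 2364) in JQ1 and 2926 CPM (2786 to 3071) in control (ratio 0.777, 0.730 to 0.827). The counting intervals did not overlap, but the difference stayed under 1.5-fold. Il17f, its close relative, had 418 UMIs in 35 JQ1 cells and 619 UMIs in 40 control cells, or 373 CPM (338 to 411) and 1099 CPM (1014 to 1189). JQ1 T cells thus had 2.95-fold less Il17f by CPM (ratio 0.340, 0.299 to 0.385). Il22 had 53 UMIs in 6 JQ1 cells and 128 UMIs in 15 control cells, or 47.3 CPM (35.4 to 61.9) and 227 CPM (189.6 to 270.2), a ratio of 0.208 (0.148 to 0.289). Few cells carried Il22 in either library, and the single cell with most held 64.2% of its UMIs in JQ1 and 27.3% in control. The ratio was 0.103 without the richest cell of each library and 0.429 when 5 T markers were required. Il22 has a near-identical copy, Iltifb, which had 0 UMIs in both libraries, and reads that match both copies cannot be told apart.

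**Figure D1:**
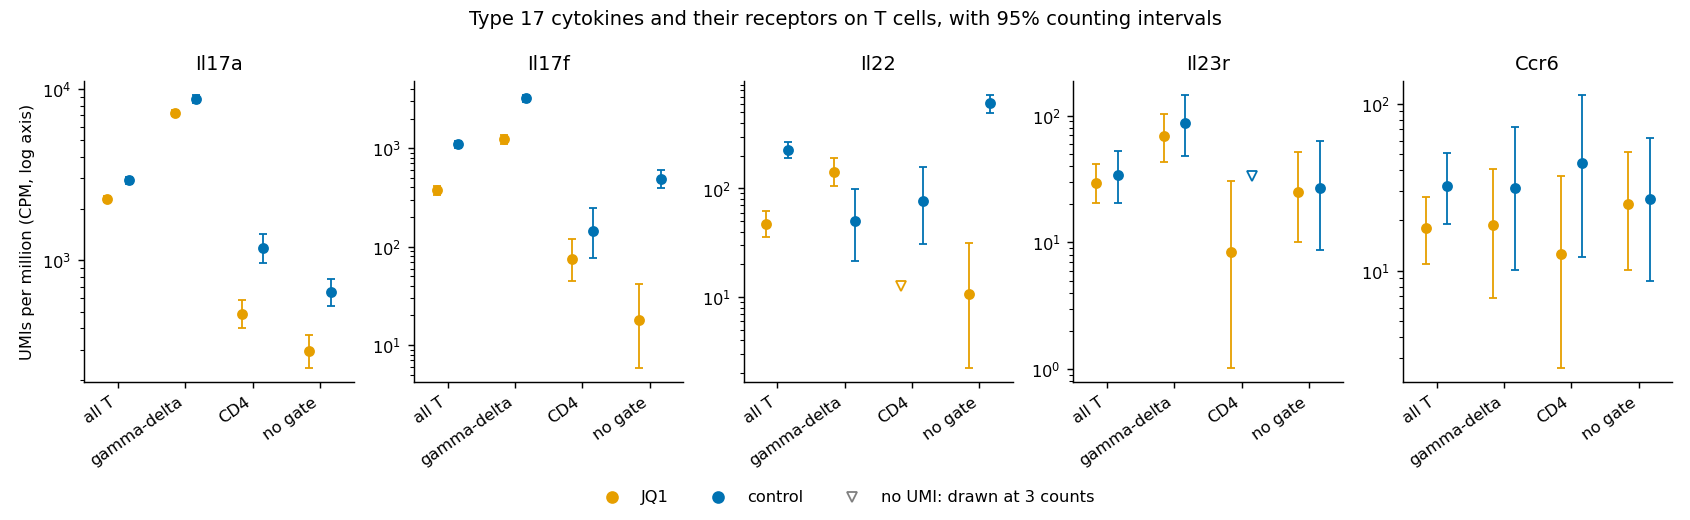
CPM on a log axis with 95% Poisson intervals for Il17a, Il17f, Il22, Il23r and Ccr6 in all T-class cells, gamma-delta T cells, CD4 T cells and T cells outside the subset gates, JQ1 left of control; triangles mark sums of 0 UMIs drawn at the level of 3 UMIs. Il17f lies lower in JQ1 in the whole class (373 against 1099 CPM) and in gamma-delta cells (1228 against 3202 CPM), while the 2 Il17a points of each pair lie closer together there.

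Marker RNA of other classes in the T class also differed between the libraries. The summed keratinocyte list, with all 16 genes detected in control and 15 in JQ1, stood at 427 CPM in JQ1 and 1637 CPM in control. The neutrophil list stood at 206 and 573 CPM, and the gland list at 996 and 101 CPM. Without the 1 JQ1 and 2 control T cells that held 20 or more keratinocyte or gland marker UMIs, the log2 ratio was -1.53 for Il17f and -2.29 for Il22, against -1.56 and -2.26 with them.

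Over all kept cells, which mix the classes in different proportions in the 2 libraries, the direction of Il17a was the opposite. It was 30.6 CPM in JQ1 and 15.3 CPM in control over all kept cells. The T class held 90.8% of Il17a UMIs in JQ1 and 94.7% in control, and 89.5% and 92.4% of Il17f UMIs. In keratinocytes, which are not known as a source of IL-17A, 0.801% of JQ1 cells (median 11447 UMIs) and 0.541% of control cells (median 17189.5 UMIs) had an Il17a UMI. In the shallower T class the shares were 20.6% and 24.0%.

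Cells were also counted at equal depth, after each was thinned to 1000 UMIs, which left out 13 JQ1 and 28 control T cells. Il17f was then seen in 6.83% of JQ1 and 15.6% of control T cells, a difference of -8.78 percentage points (-14.8 to -3.48). Without thinning the shares were 9.23% and 17.2%. Il22 was seen in 1.09% of JQ1 and 5.37% of control T cells, a difference of -4.27 points (-8.31 to -1.39); thinned to 500 UMIs, which kept every T cell, it was -1.52 points (-4.52 to 0.620), an interval that held 0. For Il17a the shares were 17.8% and 22.0%, and the interval of their difference held 0 (-11.3 to 2.46 points). At 2000 UMIs, which left out 127 JQ1 and 116 control T cells, the Il17a difference was -11.7 points (-21.9 to -1.80) and its interval excluded 0. Unthinned shares were 1.58% and 6.44% for Il22. Each thinned share comes from 1 random draw, and its interval leaves out the spread between draws.

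The cytokine RNA sat in few cells, some of them very rich in it. Among cells with a UMI, Il17a ranged up to 317 UMIs per cell in JQ1 (median 9.50) and up to 204 in control (median 12.5). Il17f ranged up to 80 UMIs in JQ1 (median 4) and up to 119 in control (median 7). Cells with 10 or more Il17f UMIs numbered 10 of 379 in JQ1 and 17 of 233 in control. Both the share of cells with Il17f and the median of UMIs per such cell were thus smaller in the JQ1 library, whose T cells had the higher median depth.

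**Figure D2:**
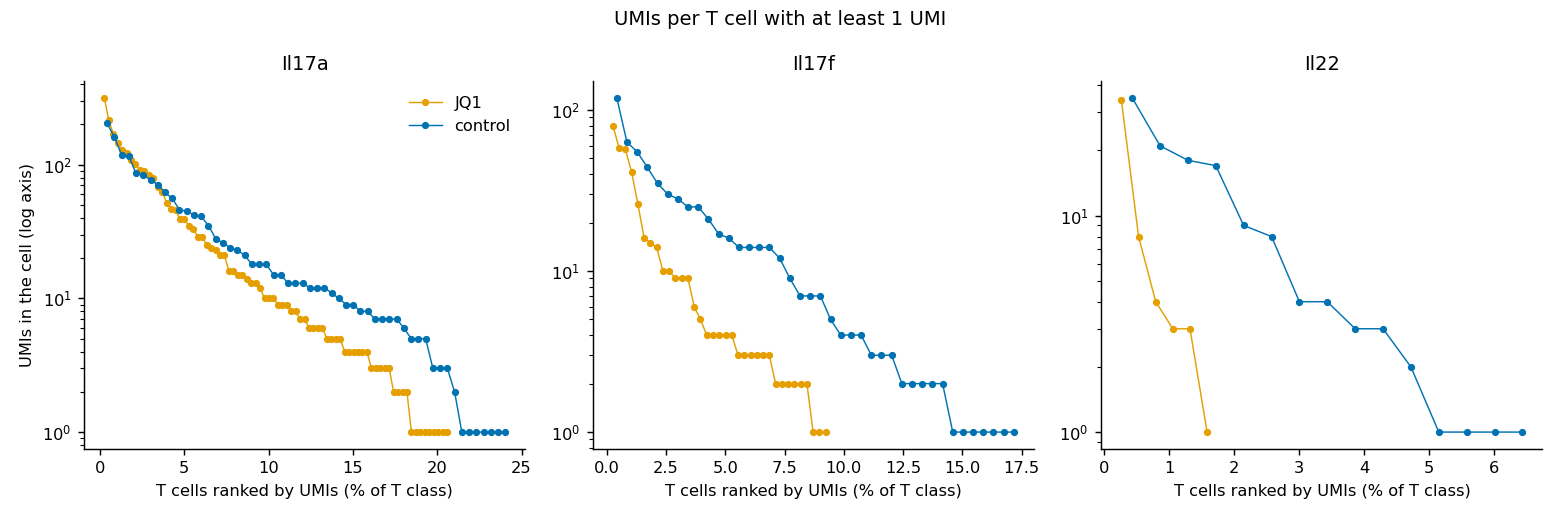
UMIs per T-class cell (log axis) for Il17a, Il17f and Il22, cells ordered from most to fewest and placed as a percentage of the T class of their library, 379 JQ1 and 233 control cells. The Il17f and Il22 curves of JQ1 end further left (9.23% and 1.58% of cells) than those of control (17.2% and 6.44%).

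Gamma-delta T cells carried most of the Il17a and Il17f in both libraries. They were gated by 2 or more UMIs of gamma-delta receptor genes and were 22.2% of the JQ1 T class (84 cells) and 22.3% of the control T class (52 cells). They held 92.0% of JQ1 and 85.7% of control T-class Il17a UMIs, and 94.5% and 83.2% of Il17f UMIs. Regulatory (Foxp3) and CD8 T cells together held 7 Il17a UMIs and no Il17f UMI in either library.

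Within gamma-delta cells, too, Il17f was lower in JQ1 by more than 1.5-fold and Il17a by less. Il17a had 2342 UMIs in 64 JQ1 cells and 1413 UMIs in 38 control cells, or 7280.0 and 8784 CPM (ratio 0.829, 0.775 to 0.886). Il17f had 395 UMIs in 31 JQ1 cells and 515 UMIs in 26 control cells, or 1228 and 3202 CPM (ratio 0.384, 0.336 to 0.438). At 1000 UMIs per cell, 65.9% of JQ1 and 68.8% of control gamma-delta cells had Il17a, but 22.0% and 47.9% had Il17f (difference -26.0 points, -41.7 to -9.15). The Il17a difference had an interval from -18.5 to 14.0 points. The Il17f difference was smaller at the other depths. It was -13.5 points (-29.2 to 2.29) at 500 UMIs with every cell kept and -18.8 points (-36.3 to -0.106) at 2000 UMIs. Each depth is 1 random draw. JQ1 gamma-delta cells with Il17f numbered 21 of 84 at 500 UMIs and 18 of 82 at 1000 UMIs, fewer at the greater depth. The size of the difference thus also depends on the draw. Unthinned, the shares were 76.2% and 73.1% for Il17a and 36.9% and 50% for Il17f, with an interval of the Il17f difference that held 0 (-29.3 to 3.82 points). Of the 5 members measured in gamma-delta cells, 1 was lower and 2 (Il22 and Il17ra) were higher by 1.5-fold or more, where 11.8% and 17.9% of all 3226 measured genes were. Il17ra had only 20 UMIs in 16 JQ1 cells and 4 UMIs in 4 control cells. The interval of its share difference held 0 at every depth (-0.0508 to 16.6 points at 1000 UMIs). In gamma-delta cells the keratinocyte list summed to 295 CPM in JQ1 and 2885 CPM in control, and the neutrophil list to 96.4 and 1094 CPM. Without the 1 control gamma-delta cell that held 20 or more keratinocyte or gland marker UMIs (0 in JQ1), the log2 ratio of Il17f was -1.43, against -1.38 with it; the part of neutrophil RNA was not tested.

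The Il22 UMIs lay in different cells in the 2 libraries. In JQ1, gamma-delta cells held 46 of 53 T-class Il22 UMIs, with 34 of them in 1 cell. In control they held 8 of 128, and T cells outside every subset gate held 113, in 8 cells. The ratio of Il22 was therefore 2.88 in gamma-delta cells and 0.0177 in the cells outside the gates. The ratio outside the gates rests on 3 JQ1 UMIs, all in 1 cell. The gamma-delta value turned round when the gate was widened to 1 UMI (log2 -1.04), set to 1 or more UMI of Trdc and Trdv4 (log2 -0.79) or thinned (log2 -0.29). No direction can be given for Il22 in gamma-delta cells.

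T cells outside the gates also had less Il17f in JQ1, 5 UMIs in 2 of 132 cells, against 91 UMIs in 8 of 99 control cells. Their Il17a was 293 CPM in JQ1 and 648 CPM in control, and this difference turned round (log2 0.47) when cells with 1 gamma-delta receptor UMI were moved to the gamma-delta gate. CD4 T cells had 116 Il17a UMIs in 4 of 70 JQ1 cells and 107 in 6 of 37 control cells, too few cells to describe a class.

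Il17f was found almost wholly in cells that also had Il17a. Of cells with Il17f, 33 of 35 in JQ1 and 38 of 40 in control had Il17a. Of cells with Il17a, 33 of 78 (42.3%) in JQ1 and 38 of 56 (67.9%) in control had Il17f. Il22 shared cells with Il17a less completely, in 4 of 6 JQ1 and 9 of 15 control cells. These counts are unthinned, and a gene of few UMIs per cell is missed more often.

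Il23r, the receptor chain through which interleukin 23 sustains type 17 cells, had 33 UMIs in 24 JQ1 T cells and 19 UMIs in 18 control T cells, or 29.5 and 33.7 CPM. The interval of the ratio, 0.482 to 1.63, leaves a difference of more than 1.5-fold in either direction possible at this depth. The share of T cells with Il23r differed by 0.235 points (-2.91 to 2.62) at 1000 UMIs per cell. At 500 UMIs it differed by -1.72 points (-4.33 to -0.266), with Il23r in 0 JQ1 and 4 control cells. A separate draw to 500 UMIs of the gamma-delta cells alone, which are part of the T class, found Il23r in 2 JQ1 and 2 control cells. The difference at 500 UMIs thus depends on the draw and gives no direction. Gamma-delta cells held 22 of the JQ1 and 14 of the control UMIs, and 18 of 24 JQ1 and 12 of 18 control cells with Il23r also had Il17a. Among cells without Il23r, 16.9% in JQ1 and 20.5% in control had Il17a. Ccr6, the homing receptor, had 20 and 18 UMIs in 15 JQ1 and 13 control T cells, or 17.9 and 32.0 CPM, past 1.5-fold but with a ratio interval that held 1 (0.281 to 1.12). Unlike Il23r, Ccr6 was spread over the subsets, with 6 JQ1 and 5 control UMIs in gamma-delta cells. Il17ra, the receptor chain common to IL-17A and IL-17F, had 70 UMIs in 60 JQ1 T cells and 16 UMIs in 15 control T cells, or 62.5 and 28.4 CPM (ratio 2.20, 1.26 to 4.06). With the mean of per-cell CPM the Il17ra ratio was 1.48, under 1.5. The share of T cells with Il17ra differed by 4.12 points (0.332 to 7.44) at 1000 UMIs per cell, but the interval held 0 at 500 and at 2000 UMIs.

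The wider type 17 lymphocyte programme, a list of 25 transcription factors, receptors and products, was mixed. In the T class 23 of its genes were measured, of which 5 were lower and 2 higher by 1.5-fold (all genes 8.61% and 17.3%), with a median log2 ratio of -0.28 against 0.08 for all measured genes. Areg, the tissue repair factor amphiregulin, was 967 CPM in JQ1 and 1545 CPM in control (ratio 0.626, 0.572 to 0.685), and Blk, a kinase of gamma-delta type 17 cells in mice, was 67.8 and 105 CPM (ratio 0.648, 0.455 to 0.926). Irf4, a transcription factor of activated lymphocytes, was higher in JQ1 at 143 against 83.4 CPM (ratio 1.71, 1.23 to 2.42). Ccl20, the ligand of CCR6, was 88.4 and 55.0 CPM, but 1 cell held 54.5% of its JQ1 UMIs and 1 cell 77.4% of its control UMIs.

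In gamma-delta cells 6 of 20 measured programme genes were lower and 0 higher (all genes 11.8% and 17.9%), with a median log2 ratio of -0.10 (all genes 0.00). The lower ones included Batf, a transcription factor needed for type 17 differentiation (183 CPM in JQ1 and 336 in control, ratio 0.546, 0.371 to 0.805), the lymphotoxin gene Ltb (308 and 559 CPM), Areg (2819 and 4638 CPM), Blk (224 and 342 CPM) and Ccl20, whose control UMIs came to 88.9% from 1 cell. Cd163l1, a scavenger receptor of gamma-delta type 17 cells, was within 1.5-fold (246 UMIs in 66 JQ1 cells and 135 in 41 control cells, ratio 0.911); this gene was picked after its values were seen. Of the ligand list, 3 of 13 genes were measured in the T class, with Il1b lower (ratio 0.126) and Il10 higher (ratio 1.77). The neutrophil list in the T class was also lower in JQ1, at 206 against 573 CPM. A single control T cell held 73.8% of the control S100a9 UMIs of the class. The part of neutrophil RNA in the Il1b level was not tested. Of the list of other receptor chains, 5 of 10 were measured, with the IL-17RE gene Il17re lower (ratio 0.402) and the shared IL-10 family chain Il10rb higher (ratio 1.90).

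On the receiving side, RNA of the IL-17 receptor chains was present in keratinocytes, fibroblasts and endothelium of both libraries, and none of it was lower in JQ1 by 1.5-fold. Il17ra was higher in JQ1 keratinocytes and nearly equal in fibroblasts, while Il17rc was within 1.5-fold in all 3 classes. Il22ra1 was too sparse to compare. In keratinocytes 3 members were measured, 1 higher (Il17ra) and 1 lower (Il23a, given below) by 1.5-fold, against 11.5% higher and 4.52% lower among 8270 measured genes. In fibroblasts (5.82% of all genes higher, 2.79% lower) and endothelium (8.56% higher, 3.78% lower), 2 members each were measured and 0 passed 1.5-fold.

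Il17ra had 272 UMIs in 1499 JQ1 keratinocytes and 846 in 5364 control keratinocytes, or 13.2 CPM (11.6 to 14.8) and 8.30 CPM (7.75 to 8.87), a ratio of 1.59 (1.38 to 1.82). The median log2 ratio of all genes measured there was 0.15, and on a size-factor scale that sets it to 0 the Il17ra ratio was 1.43, under 1.5. Split by leading keratin, its level was 14.1 CPM in JQ1 and 12.1 in control in Krt15-led (basal keratin) cells, 13.5 and 6.56 in Krt13- or Krt4-led (differentiated mucosal keratin) cells, and 12.5 and 8.21 in Krt6a- or Krt16-led (stress keratin) cells. The ratio of Krt15-led cells had an interval that held 1 (0.805 to 1.69), and the other 2 groups did not. Fibroblasts had 47.7 CPM in JQ1 and 49.3 CPM in control (ratio 0.968, 0.823 to 1.15), and endothelial cells 16.5 and 13.2 CPM (ratio 1.25, 0.855 to 1.88). Fibroblast marker RNA in the keratinocyte class, over all 12 genes of its list, was 471 CPM in JQ1 and 164 CPM in control, and its part in the keratinocyte Il17ra level was not tested.

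Il17ra was found in every class with 30 or more cells in both libraries. In JQ1 its level was highest in neutrophils, at 85.8 CPM (73.7 to 99.2), then in T cells, fibroblasts, macrophages (45.4 CPM), pericytes and smooth muscle (27.8 CPM), endothelium, keratinocytes and gland cells (7.75 CPM). In control the neutrophils again led at 73.9 CPM (57.9 to 92.9), and fibroblasts, macrophages (37.3 CPM), T cells, pericytes (20.7 CPM), endothelium, keratinocytes and gland cells (5.75 CPM) followed. Schwann cells had 11 UMIs in JQ1 and 1 in control. Of neighbours in this order, pericytes and endothelium and keratinocytes and gland cells had intervals that did not overlap in JQ1, as did neutrophils and fibroblasts and endothelium and keratinocytes in control; the other neighbours overlapped and cannot be ordered.

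Il17rc was highest in keratinocytes among the classes with more than 2 UMIs in each library. They had 877 UMIs in JQ1 and 3355 in control, or 42.4 CPM (39.7 to 45.3) and 32.9 CPM (31.8 to 34.0), a ratio of 1.29 (1.20 to 1.39). The keratin groups did not go one way: the ratio was 1.11 in Krt15-led, 0.780 in Krt13- or Krt4-led (58.1 against 74.4 CPM) and 1.46 in Krt6a- or Krt16-led cells (42.9 against 29.3 CPM). Fibroblasts had 19.8 CPM in JQ1 and 15.2 CPM in control (ratio 1.31, 0.980 to 1.78), and endothelial cells 11.3 and 9.06 CPM (ratio 1.25, 0.791 to 2.06). Pericytes and smooth muscle came next among these classes, at 22.7 CPM (18.2 to 28.1) in JQ1 and 20.7 CPM (11.8 to 33.6) in control, which overlapped keratinocytes in control but not in JQ1. Schwann cells had 19.2 CPM (13.5 to 26.5) in JQ1 and 27.9 CPM (3.38 to 101) in control, where the level rests on 2 UMIs and cannot be placed in the order. The immune classes had few Il17rc UMIs, 2 and 3 UMIs in neutrophils, 3 and 1 in macrophages and 3 and 5 in T cells. In CPM that was 0.948 and 3.04 in neutrophils, 3.24 and 4.14 in macrophages, and 2.68 CPM (0.552 to 7.83) in JQ1 and 8.88 CPM (2.88 to 20.7) in control T cells, the last of which overlapped control endothelium. Il22ra1, the IL-22 receptor chain, had 1 UMI in JQ1 and 11 in control, all in Krt6a- or Krt16-led keratinocytes, 1 UMI per cell. At 0.0667% and 0.205% of keratinocytes, a difference was not detectable at this depth.

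**Figure D3:**
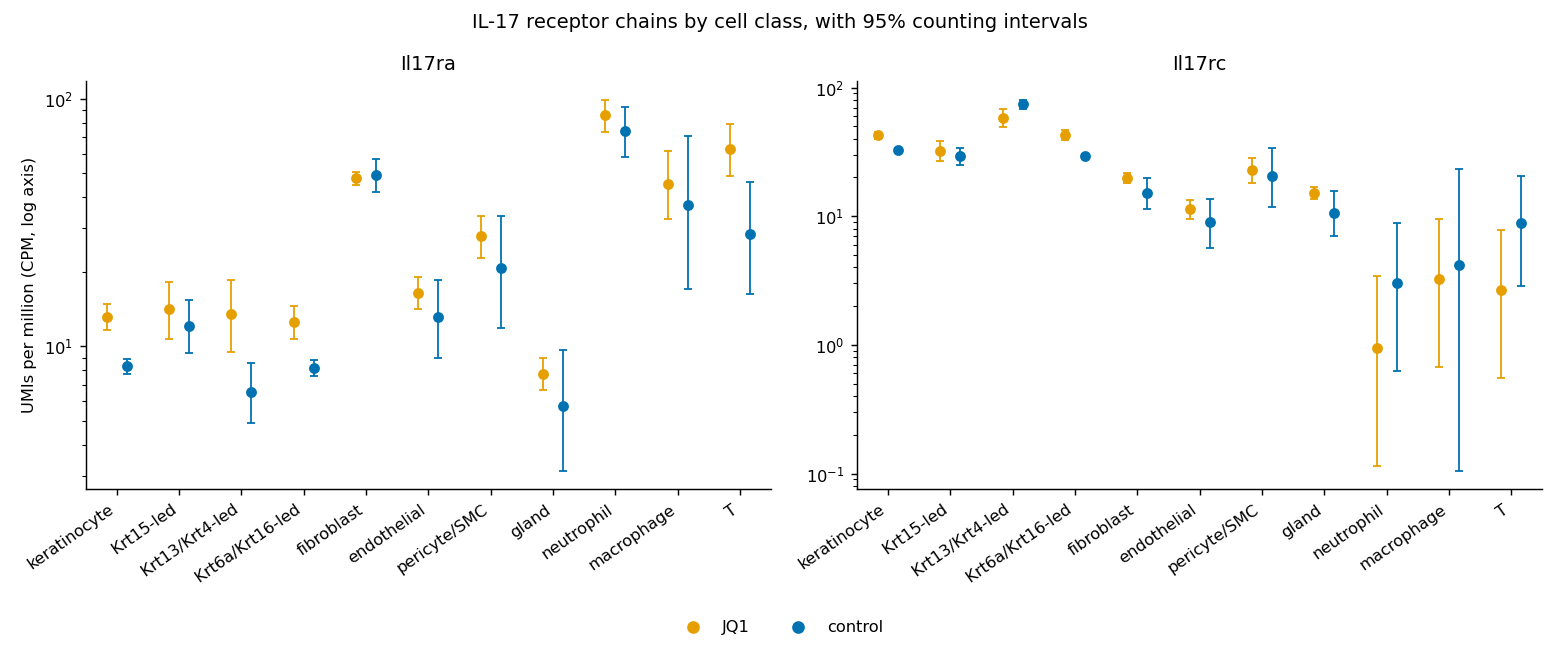
Il17ra and Il17rc in CPM with 95% Poisson intervals by cell class, JQ1 left of control, with keratinocytes also split by leading keratin. Il17ra is highest in neutrophils (85.8 and 73.9 CPM) and Il17rc in Krt13- or Krt4-led keratinocytes (58.1 and 74.4 CPM).

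Genes known as targets of IL-17 and IL-22 form a list of 30 chemokines, antimicrobial peptides, cytokines and regulators. In keratinocytes, of 25 measured, 12 were lower and 5 higher by 1.5-fold (all genes 4.52% and 11.5%), with a median log2 ratio of -0.58 against 0.15 for all genes. The antimicrobial peptide gene Defb3 had 0.484 CPM in JQ1 and 30.8 CPM in control (ratio 0.0157, 0.00752 to 0.0289), the neutrophil chemokine gene Cxcl5 24.6 and 245 CPM (ratio 0.101, 0.0920 to 0.110), and Il1f6, which codes for the epithelial cytokine IL-36 alpha, 2.61 and 15.5 CPM (ratio 0.169, 0.126 to 0.221). The acute phase gene Saa3 was higher at 134 against 6.70 CPM and the protease gene Mmp3 at 36.2 against 5.01 CPM. The richest JQ1 cell of each gene held 38.1% of JQ1 Saa3 UMIs and 57.8% of JQ1 Mmp3 UMIs. In the same keratinocytes the fibroblast list summed to 471 CPM in JQ1 and 164 CPM in control and the neutrophil list to 1701 and 3970.4 CPM. S100a8 and S100a9 are on both the neutrophil list and the target list, so the neutrophil sum cannot be read as neutrophil RNA alone. The part of fibroblast or neutrophil RNA in the target levels was not tested.

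The balance varied with the leading keratin. In Krt15-led cells 10 of 18 measured targets were lower and 1 higher (all genes 2.57% and 13.7%), in Krt13- or Krt4-led cells 8 of 21 were lower and 8 higher (all genes 3.88% and 20.1%), and in Krt6a- or Krt16-led cells 10 of 25 were lower and 8 higher (all genes 4.81% and 11.1%). The median log2 ratios were -0.76, -0.28 and -0.46, each below that of all genes in its group (0.16, 0.20 and 0.14). Many of these genes also answer to other stimuli, and the list does not isolate IL-17 signalling.

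In fibroblasts and endothelium similar numbers of targets were lower and higher. In fibroblasts 3 of 20 measured targets were lower and 4 higher (all genes 2.79% and 5.82%), with a median log2 ratio of -0.05 (all genes 0.07). The collagenase gene Mmp13 was 157 CPM in JQ1 and 464 CPM in control (ratio 0.337, 0.318 to 0.358), while the neutrophil chemokine genes Cxcl5 (376 and 153 CPM) and Cxcl3 (86.5 and 6.41 CPM) were higher in JQ1. Cxcl5 thus stood lower in JQ1 keratinocytes and higher in JQ1 fibroblasts. Neutrophil marker RNA in the fibroblast class, from all 14 genes of its list in JQ1 and 12 in control, was 660.4 and 377 CPM. That list shares S100a8 and S100a9 with the target list. The part of neutrophil RNA in the chemokine levels was not tested. In endothelium 4 of 20 were lower and 4 higher (all genes 3.78% and 8.56%; median log2 ratio -0.19, all genes 0.07), with the monocyte chemokine gene Ccl2 at 487 against 213 CPM (ratio 2.28, 2.09 to 2.50) and Ccl7 at 81.2 against 11.5 CPM. The richest control cell of each gene held 99.4% of the Mmp3 and 93.7% of the Saa3 UMIs of control endothelium, where both genes were lower in JQ1. Genes of the IL-17 signal relay, 14 adaptors, kinases and RNA regulators, were mostly within 1.5-fold: 13 were measured in each of the 3 classes, 0 were lower, and only Srsf1 in keratinocytes was higher (ratio 1.53). That ratio is close to the limit in a class where all measured genes had a median log2 ratio of 0.15 and 11.5% were higher by 1.5-fold.

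**Figure D4:**
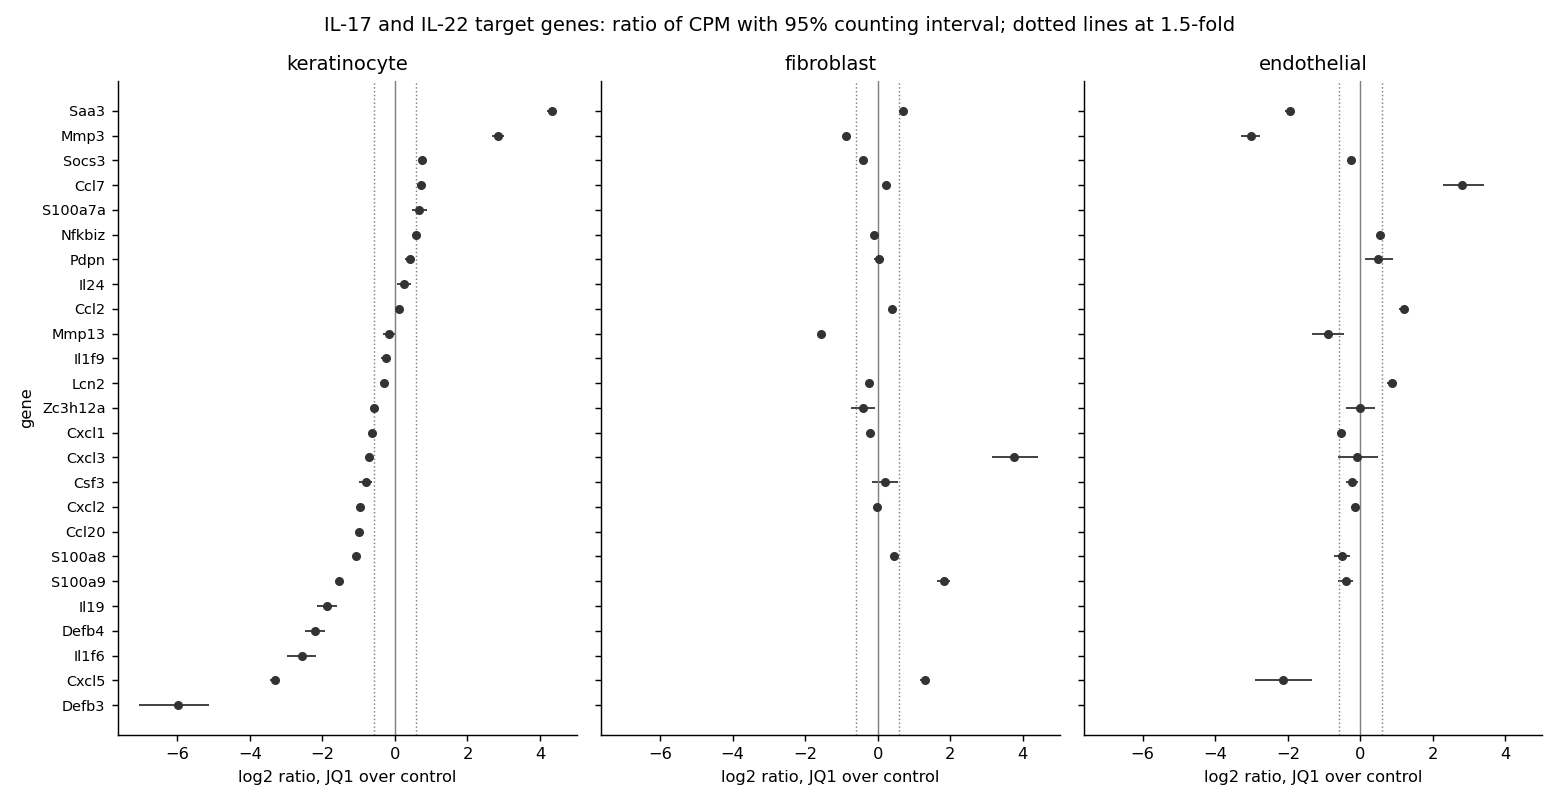
Log2 ratio JQ1 over control with 95% intervals for the 25 IL-17 and IL-22 target genes measured in keratinocytes, shown in keratinocytes, fibroblasts and endothelial cells; dotted lines mark 1.5-fold. Keratinocyte points lie mostly left of 0 (median -0.58), and Cxcl5 lies left in keratinocytes and right in fibroblasts.

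Il23a lay mainly in neutrophils and keratinocytes and was lower in JQ1 in both. Neutrophils held 70.7% of its UMIs in JQ1 and 37.4% in control, and keratinocytes 11.8% and 60.9%.

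In neutrophils Il23a had 467 UMIs in 136 of 707 JQ1 cells and 667 in 149 of 558 control cells, or 221 CPM (202 to 242) and 675 CPM (625 to 728), a ratio of 0.328 (0.291 to 0.369). Of 3 members measured in neutrophils 1 (Il23a) was lower and 1 (Il17a, 52 of whose 53 JQ1 UMIs came from 1 barcode) higher, where 12.6% and 33.5% of 6754 genes were. The JQ1 neutrophil class held 165 cells with granule genes of maturing neutrophils (5 or more UMIs of Camp, Ngp, Ltf, Elane and Mpo), against 33 in control, and these carried 2 and 78 Il23a UMIs. They stood at 2.05 CPM in JQ1 and 654 CPM in control, with a UMI in 1.21% and 33.3% of them. Without them, a split chosen after the values were seen, Il23a stood at 410.5 CPM in JQ1 and 678 CPM in control (ratio 0.605), with a UMI in 24.7% and 26.3% of cells. The difference was thus 1.65-fold among cells without granule genes, in place of 3.05-fold over all neutrophils. It was far larger among cells with granule genes, where the JQ1 level rests on 2 UMIs. In control the levels with and without granule genes were close, at 654 and 678 CPM.

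Keratinocytes had 78 Il23a UMIs in 59 JQ1 cells and 1087 in 526 control cells, or 3.77 CPM (2.98 to 4.71) and 10.7 CPM (10.0 to 11.3), a ratio of 0.354 (0.278 to 0.446). All 3 keratin groups were lower in JQ1, with 1.48 and 3.61 CPM in Krt15-led, 4.60 and 17.7 in Krt13- or Krt4-led and 4.33 and 10.4 in Krt6a- or Krt16-led cells. The Krt15-led group rests on 6 and 20 UMIs. The neutrophil list in the keratinocyte class, with all 14 genes detected, was also lower in JQ1, 1701 against 3970.4 CPM. It includes S100a8 and S100a9, which are also on the target list, so the sum cannot be read as neutrophil RNA alone. The part of neutrophil RNA in the keratinocyte Il23a level was not tested. Macrophages had 14 UMIs in 9 of 171 JQ1 cells and 0 UMIs in 63 control cells. The interval of their ratio began at 0.866, so a difference was not detectable at this depth. A count of 0 in 63 cells allows a share of up to 4.76% by the limit of 3 counts and 5.69% by the Clopper-Pearson interval, against 5.26% seen in JQ1. The neutrophil list in macrophages summed to 1497 CPM in JQ1 and 932 CPM in control. Fibroblasts (1.29 and 1.75 CPM) and endothelium (1.42 and 1.65 CPM) had few Il23a UMIs in either library.

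**Figure D5:**
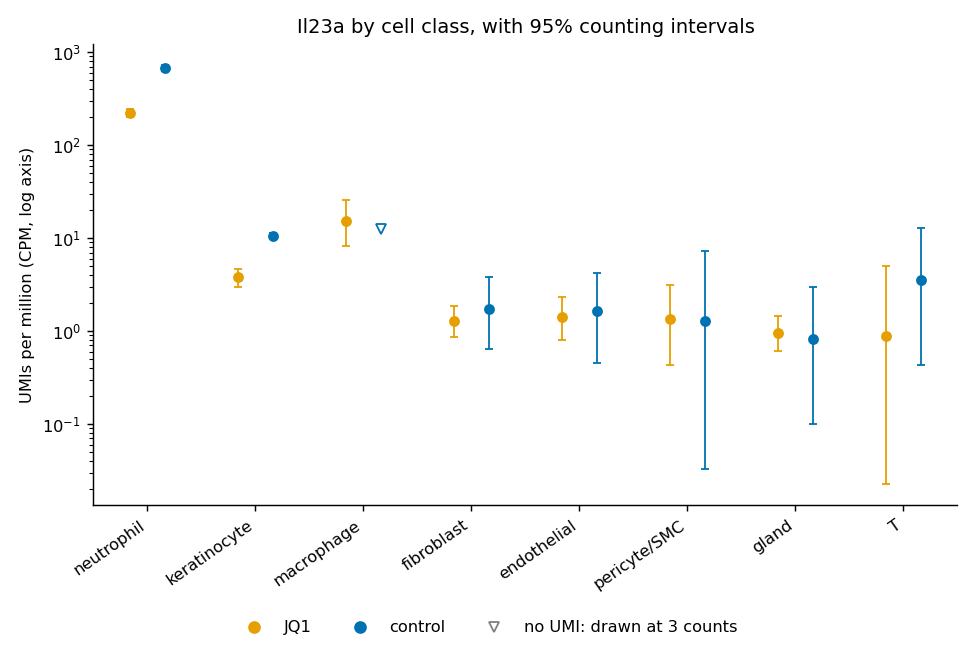
Il23a in CPM (log axis) with 95% Poisson intervals by cell class, JQ1 left of control; the triangle marks a sum of 0 UMIs drawn at 3 UMIs. Neutrophils (221 and 675 CPM) stand above keratinocytes (3.77 and 10.7 CPM), and both are lower in JQ1.

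The genes with the most similar profile over 28 class and T subset levels (both libraries, log2(CPM + 1), 12703 genes compared) were ranked for each member. Il17a was most like Stk24 (Pearson r = 0.939), Cd226 and Cxcr6, and Il17f most like Podnl1 (r = 0.917), Cd163l1 and Blk. Il22 was closest to Cryba4 (r = 0.913), Tnfrsf25 and B4galnt4, Il23r to Utf1 (r = 0.957), Kcnmb4os2 and B4galnt4, and Ccr6 to the interleukin 12 and 23 receptor gene Il12rb1 (r = 0.964), Xlr4b and Camk4. Among the tissue genes, Il17ra was nearest to Skil (r = 0.862), Nfkb1 and Tnfaip3, Il17rc to Bsg (r = 0.840), Fam149b and Kdelc1, Il22ra1 to Ces1g (r = 0.952), Krt76 and Rbp2, and Il23a to the neutrophil gene S100a9 (r = 0.903), Wfdc21 and Lilra6. The profiles share libraries, depth and free RNA, so these values describe the profiles only. The profile of Il22ra1 rests on 1 JQ1 and 11 control UMIs, all in keratinocytes, so its ranking carries little information.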

How the data were processed

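RNA of single cells was measured with 10x droplet libraries of tongue tumours, 1 library for JQ1 and 1 for control. The deposited matrices hold raw UMI counts per gene and barcode, the same 31053 genes in both. Cell Ranger 3.1.0 and Seurat 4.0.0 are named in the submitters' processing notes, with mm10 as the genome build. For the annotation and any barcode filter the sources used here give nothing; the lowest barcode total was 500 UMIs in each library. The 9 genes, the marker lists and the pathway lists were chosen with earlier results of these data known.

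A barcode needed 200 or more genes and less than 20% mitochondrial UMIs, which left out 10.9% of JQ1 and 15.2% of control barcodes, and Scrublet (scanpy 1.11.5) called doublets within each library (2.93% and 1.44% removed). A cell took the class with the largest share of its marker list detected, given 3 or more markers; 3.50% of JQ1 and 1.90% of control cells stayed ungated. T cells were then split in this order: gamma-delta (2 or more UMIs of Trdc, Tcrg-C1, Tcrg-C2, Tcrg-C4, Tcrg-V6 and Trdv4), Foxp3, CD8, CD4, and the rest. Keratinocytes were split by the most abundant keratin group of each cell. No gate used any of the 9 genes. Values of 1 gene of the lymphocyte list are not reported here.

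For each class and library the UMIs of a gene were added up and divided by the UMIs of all genes there (CPM); sums carry exact Poisson intervals and ratios an exact conditional binomial interval. A gene was measured if the 2 libraries together had 20 or more UMIs and one of them 10 CPM or more, and was called higher or lower at 1.5-fold. Named list genes were the up to 5 per list and class with the largest ratio past 1.5-fold whose interval excluded 1. Shares have Clopper-Pearson intervals and differences of shares Newcombe intervals, at 1000 UMIs per cell. Thinning used 1 random draw for each depth and class, and the spread between draws was not measured. A sum of 0 was set to 3 UMIs. With 1 library per group no test or p-value was made. The ratio table was tested on simulated Poisson sums in which a small random part of the genes was changed. At 2-fold, 76% of the genes changed among 6925 T-class genes were called, and 100% of those changed among 7652 keratinocyte genes. Of unchanged T-class genes, 14.3% passed 1.5-fold by counting error alone. The simulation held no clumping of UMIs in single cells, so it does not describe the call for the cytokines. Similar profiles were ranked by Pearson correlation of log2(CPM + 1). Software was Python 3.11.15 with pandas 2.3.3, numpy 2.4.6, scipy 1.17.1, statsmodels 0.14.6, leidenalg 0.10.2, scikit-learn 1.9.0, matplotlib 3.10.9 and igraph 0.11.9. Alternatives changed the cell filter, doublet removal, gates, clustering, scaling, thinning and list filter one at a time, except that the gate from Trdc and Trdv4 also lowered its limit to 1 UMI.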

Additional observations from a re-analysis of the deposited data

How the results depend on the processing

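Of 443 alternative values over 38 results, 396 stayed within the counting interval or within 1.5 times the reported count, 43 lay outside it, and 4 turned round a difference past 1.5-fold; 21 in all had the opposite sign. The causes were not tested. Values are log2 ratios JQ1 over control unless named as counts or points. Il17f in the T class and in gamma-delta cells kept its direction under every alternative that was run. With cells thinned to equal depth, Il17a was -0.55, Il17f -2.05 and Il22 -3.28 in the T class. In gamma-delta cells Il17a was -0.42, Il17f -1.77, Il23r 0.81 and Il22 -0.29, the last 2 with the opposite sign. Il17rc was 1.25 in fibroblasts and Il23a -1.06 in neutrophils. The programme counts in T cells were 2 lower and 1 higher and keratinocyte targets 2 higher. These thinned values come from 1 random draw. Another draw to the same depth gave 7 Il23r UMIs over 82 JQ1 and 5 over 48 control gamma-delta cells, which is lower in JQ1 per cell. It gave 84 Il17rc UMIs over 4593 JQ1 and 12 over 804 control fibroblasts. The thinned values of genes with few UMIs thus depend on the draw. Il22 in the T class was -1.22 with a gate of 5 markers and -3.28 without the richest cell; that gate gave 3 lower programme genes. Il22 in gamma-delta cells turned round to -1.04 with a gate of 1 UMI and to -0.79 with a gate of 1 UMI of Trdc and Trdv4, and Il17a outside the gates to 0.47 with the gate of 1 UMI; Il17a in gamma-delta cells was -0.13 with Trdc and Trdv4. Leiden clusters in place of gates gave -0.49 for Il17a in T cells and 2 lower and 8 higher endothelial targets. Size factors gave 0.22 for Il17rc in keratinocytes, -1.84 for Il23a in neutrophils and 3 higher keratinocyte targets, where the median of all genes had been 0.15 in keratinocytes and 0.24 in neutrophils. The mean of per-cell CPM gave -1.03 for Il23a in neutrophils, 0 higher programme genes and 2 higher keratinocyte targets. Without a filter on low values, 6 fibroblast and 9 endothelial targets were lower. By leading keratin, Il17ra was 0.22 (Krt15) and 1.04 (Krt13 or Krt4), Il17rc 0.15, -0.36 (the opposite sign) and, for Krt6a or Krt16, 0.55, and Il23a -1.94 (Krt13 or Krt4). Leaving out neutrophils with granule genes, an alternative chosen after seeing the data, gave -0.72 for Il23a. At 2000 UMIs per cell the share of T cells differed by -11.7 points for Il17a (-21.9 to -1.80) and -3.72 points for Il23r (-10.3 to 1.07). Alternatives that left a gene without UMIs in a library, such as thinned Il22ra1, gave no value. No paired analysis was possible because each group has 1 library. The count of cells with each cytokine limits every T cell value, and no value has a replicate.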

Other observations

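Cytokine RNA outside the T class was concentrated in single barcodes. In the control library 1 keratinocyte-gated barcode held 76 of the 80 Il22 UMIs of that class, as well as 18 Il17f UMIs. It had 38561 UMIs in all, 3019 over the keratinocyte markers and 38 over 10 T markers. In the JQ1 library 1 neutrophil-gated barcode held 52 of the 53 neutrophil Il17a UMIs, with 20 UMIs over 8 T markers, and 1 fibroblast-gated barcode held 17 Il17f UMIs, with 20 over 5 T markers. None of these barcodes was called a doublet or counted in the T class values.

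Il23r was also found, at 1 UMI per cell, in keratinocytes: 3 of 1499 JQ1 cells and 42 of 5364 control cells. In control, 26 of them lay among the 1134 keratinocytes with a UMI of Stmn2, which codes for a microtubule regulator best known from neurons (2.29%, median 24390.5 UMIs per cell), and 16 among the 4230 others (0.378%, median 15524.5 UMIs). In CPM, which takes depth into account, Il23r stood at 0.871 (0.569 to 1.28) in the Stmn2 cells and 0.222 (0.127 to 0.360) in the others. The JQ1 library had 42 keratinocytes with Stmn2 and no Il23r UMI in them. Their interval reached 4.33 CPM, above the control level, so a difference was not detectable. Stmn2 was picked after its values were seen. Il17rc had the opposite order in control keratinocytes, 22.6 CPM with Stmn2 and 37.2 CPM without.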
